A study of Mus musculus with 10 samples.

Results

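The 10 genes described here are classic transcriptional targets of the tumour suppressor p53: Cdkn1a, Mdm2, Bax, Phlda3, Aen, Plk2, Ccng1, Trp53inp1, Sesn1 and Zmat3. They were taken by name from a table of 23337 genes, and all 10 were found in it. All 10 also passed the filter on low counts and were among the 13191 genes tested. The libraries came from left atria of adult mice, 4 labelled control (wild type, Tbx5 +/+) and 6 labelled Tbx5 knockout. Tbx5, a member of the T-box family, controls transcription in the heart. In the knockout its exon 3 was excised by a Cre recombinase that is active in all cell types (Rosa26 promoter) once tamoxifen is given. Tamoxifen was injected at 0.167 mg per day on 3 days and the atria were collected 1 week later. The mice had a mixed C57B6 and 129 background. Their age is 8 to 10 weeks in the sample labels but 6 to 8 weeks in the extraction protocol. The same treatment text stands on every sample, and the labels do not say separately whether the controls carried the Cre or were given tamoxifen, so the loss of Tbx5, Cre activity and tamoxifen cannot be told apart as sources of a difference. By label, 2 control and 3 knockout libraries were female (F) and the others male (M), and each library is named as its own animal.

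p53, encoded by Trp53, is held at a low level by the ubiquitin ligase Mdm2, which marks it for degradation. DNA damage and other stresses activate kinases such as Atm and Atr, which free p53 from Mdm2, and p53 then binds response elements and switches on its targets. These targets arrest the cell cycle (Cdkn1a), promote cell death (Bax, Aen, Phlda3), adjust growth and metabolism (Sesn1) and feed back on p53 itself (Mdm2, Ccng1, Trp53inp1). In the heart, p53 has been studied mostly in cardiomyocyte loss and hypertrophy. Several of the targets also respond to other signals, Plk2 and Cdkn1a to growth factors among them.

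The p53 response element is a pair of decamers, each with a CNNG core. RefSeq promoter sequences (GRCm38.p6, from 250 bases before to 50 bases after the annotated start) were matched for 8 of the 10 genes, in 11 windows of 300 bases. Trp53inp1 and Zmat3 had no entry. An exact match to the p53 decamer consensus, which reads the same on both strands, stood in 7 of the 11 windows (63.6%), against 2745 of 32851 promoters of the same length (8.36%). Overlapping windows of Aen share 1 match, so the windows are not independent. A pair of decamers, with at most 1 mismatch in each, the core kept, and a spacer of at most 13 bases, stood in 2 of the 11 windows (18.2%), against 890 of all promoters (2.71%). The 10 genes were taken as known p53 targets, so these higher shares are no independent result. Median GC content was also higher in the windows, at 64.7% against 52.7% in all promoters. The pairs are in the Cdkn1a promoter at the upstream start (chr17:29090729-29091028, plus strand) and in the Ccng1 promoter (chr11:40755237-40755536, minus strand). Both are shown with the promoters of the 2 members that rose most, Plk2 (chr13:110394794-110395093, plus strand) and Phlda3 (chr1:135765835-135766134, plus strand), which held no match. The Mdm2 promoter (chr10:117710709-117711008, minus strand) and the Bax promoter (chr7:45466849-45467148, minus strand) each held a single exact decamer and are shown as genes that moved in opposite directions. Sequences run 5′ to 3′ along the gene, with the matched decamers in capitals.
Cdkn1a: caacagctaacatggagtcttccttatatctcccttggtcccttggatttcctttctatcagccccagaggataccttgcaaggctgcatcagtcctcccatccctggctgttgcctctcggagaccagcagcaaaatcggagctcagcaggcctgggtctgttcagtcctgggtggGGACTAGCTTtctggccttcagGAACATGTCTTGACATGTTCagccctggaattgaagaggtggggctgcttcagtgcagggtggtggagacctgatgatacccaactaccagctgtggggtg
Ccng1: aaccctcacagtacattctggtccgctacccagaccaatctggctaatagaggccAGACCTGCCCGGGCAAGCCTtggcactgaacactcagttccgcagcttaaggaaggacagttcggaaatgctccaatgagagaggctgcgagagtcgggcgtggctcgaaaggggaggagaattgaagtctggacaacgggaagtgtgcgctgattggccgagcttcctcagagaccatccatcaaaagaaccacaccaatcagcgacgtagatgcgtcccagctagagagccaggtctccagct
Plk2: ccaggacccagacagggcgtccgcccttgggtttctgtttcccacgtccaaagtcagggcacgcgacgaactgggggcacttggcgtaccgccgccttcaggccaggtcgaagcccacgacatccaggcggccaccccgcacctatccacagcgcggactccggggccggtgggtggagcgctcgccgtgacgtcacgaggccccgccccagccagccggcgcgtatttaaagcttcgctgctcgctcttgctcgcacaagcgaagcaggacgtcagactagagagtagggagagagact
Phlda3: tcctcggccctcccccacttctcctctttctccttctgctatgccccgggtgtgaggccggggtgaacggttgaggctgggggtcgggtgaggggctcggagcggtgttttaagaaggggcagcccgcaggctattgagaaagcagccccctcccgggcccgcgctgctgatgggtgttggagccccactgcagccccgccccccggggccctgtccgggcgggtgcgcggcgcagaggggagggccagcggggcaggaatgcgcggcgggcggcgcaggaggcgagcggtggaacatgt
Mdm2: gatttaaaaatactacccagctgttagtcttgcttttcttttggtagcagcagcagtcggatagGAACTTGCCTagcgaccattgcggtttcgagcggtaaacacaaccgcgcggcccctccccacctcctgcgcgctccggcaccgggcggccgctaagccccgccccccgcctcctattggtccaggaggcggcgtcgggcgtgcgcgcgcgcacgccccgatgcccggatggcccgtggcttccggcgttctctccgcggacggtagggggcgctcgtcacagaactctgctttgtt
Bax: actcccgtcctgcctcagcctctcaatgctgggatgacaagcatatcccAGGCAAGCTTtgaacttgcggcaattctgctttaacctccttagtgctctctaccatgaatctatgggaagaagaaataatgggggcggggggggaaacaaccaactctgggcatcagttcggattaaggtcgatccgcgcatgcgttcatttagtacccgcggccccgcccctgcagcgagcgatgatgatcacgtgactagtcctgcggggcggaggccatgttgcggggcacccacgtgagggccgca
In the Cdkn1a window the matches begin 73, 51 and 41 bases before the start, the last 2 being adjacent, and in the Ccng1 window 195 and 185 bases before it. The Bax decamer begins 201 and the Mdm2 decamer 186 bases before the start. A match is a description of the letters, and its absence from Plk2 and Phlda3 says only that they are not in these windows. The promoters shown were chosen with the expression values known.

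The libraries held 5701670 to 7697556 assigned reads in the controls and 5789632 to 7355782 in the knockouts. Tbx5 itself was higher in the libraries labelled knockout, at 1952 ± 336 normalized counts (SD, n = 6) against 939 ± 125 (SD, n = 4). The log2 fold change was 1.03 ± 0.14 (edgeR adjusted p = 4.78e-05). The mean log2 level differed by 1.05 (exact permutation p = 0.00476, two-sided, the smallest of 210 splits). A whole-gene count does not measure the loss of exon 3, so the higher Tbx5 count cannot check the knockout label. Every direction below rests on the labels. The tissue label was checked on atrial myosin light chains: Myl7 stood at 61119 ± 9804 and Myl4 at 56814 ± 11668 normalized counts in controls, against 3793 ± 1010 and 31687 ± 3964 in knockouts. Levels throughout are the authors' normalized counts (the read count divided by a size factor of the library), and log2 fold changes are knockout over control with their standard error.

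The p53 targets did not move together. In the libraries labelled knockout, 4 of the 10 rose (Plk2, Phlda3, Bax and Aen), 3 fell (Trp53inp1, Sesn1 and Mdm2) and 3 did not pass the test (Zmat3, Cdkn1a and Ccng1), at an adjusted p of 0.05 over all genes tested by edgeR's quasi-likelihood test. Among all tested genes 20.8% rose and 21.8% fell. The rises were larger than the falls: 1.49-fold to 2.80-fold up against 1.16-fold to 1.30-fold down. The median log2 fold change of the 10 was 0.49, beside -0.00 for all tested genes. The 3 falls depended on how libraries were scaled, to unlike degrees. With RLE or upper-quartile scaling Trp53inp1 and Sesn1 still passed. Mdm2 did not (adjusted p = 0.0525 and adjusted p = 0.0955). With library size alone, which moved the median of all genes to 0.14, the same 4 genes rose and none of the 10 fell. Over all genes, 3942 rose and 2020 fell there. The 4 negative log2 fold changes kept their sign. In 3 members (Plk2, Phlda3, Bax) all 6 knockout values exceeded all 4 control values, as in 16.3% of all tested genes, and in 2 (Mdm2, Trp53inp1) every one lay below, as in 15.0%. Because whole atria were measured, fewer cells of a type and less RNA per cell cannot be told apart in any of these values.

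**Figure D1:**
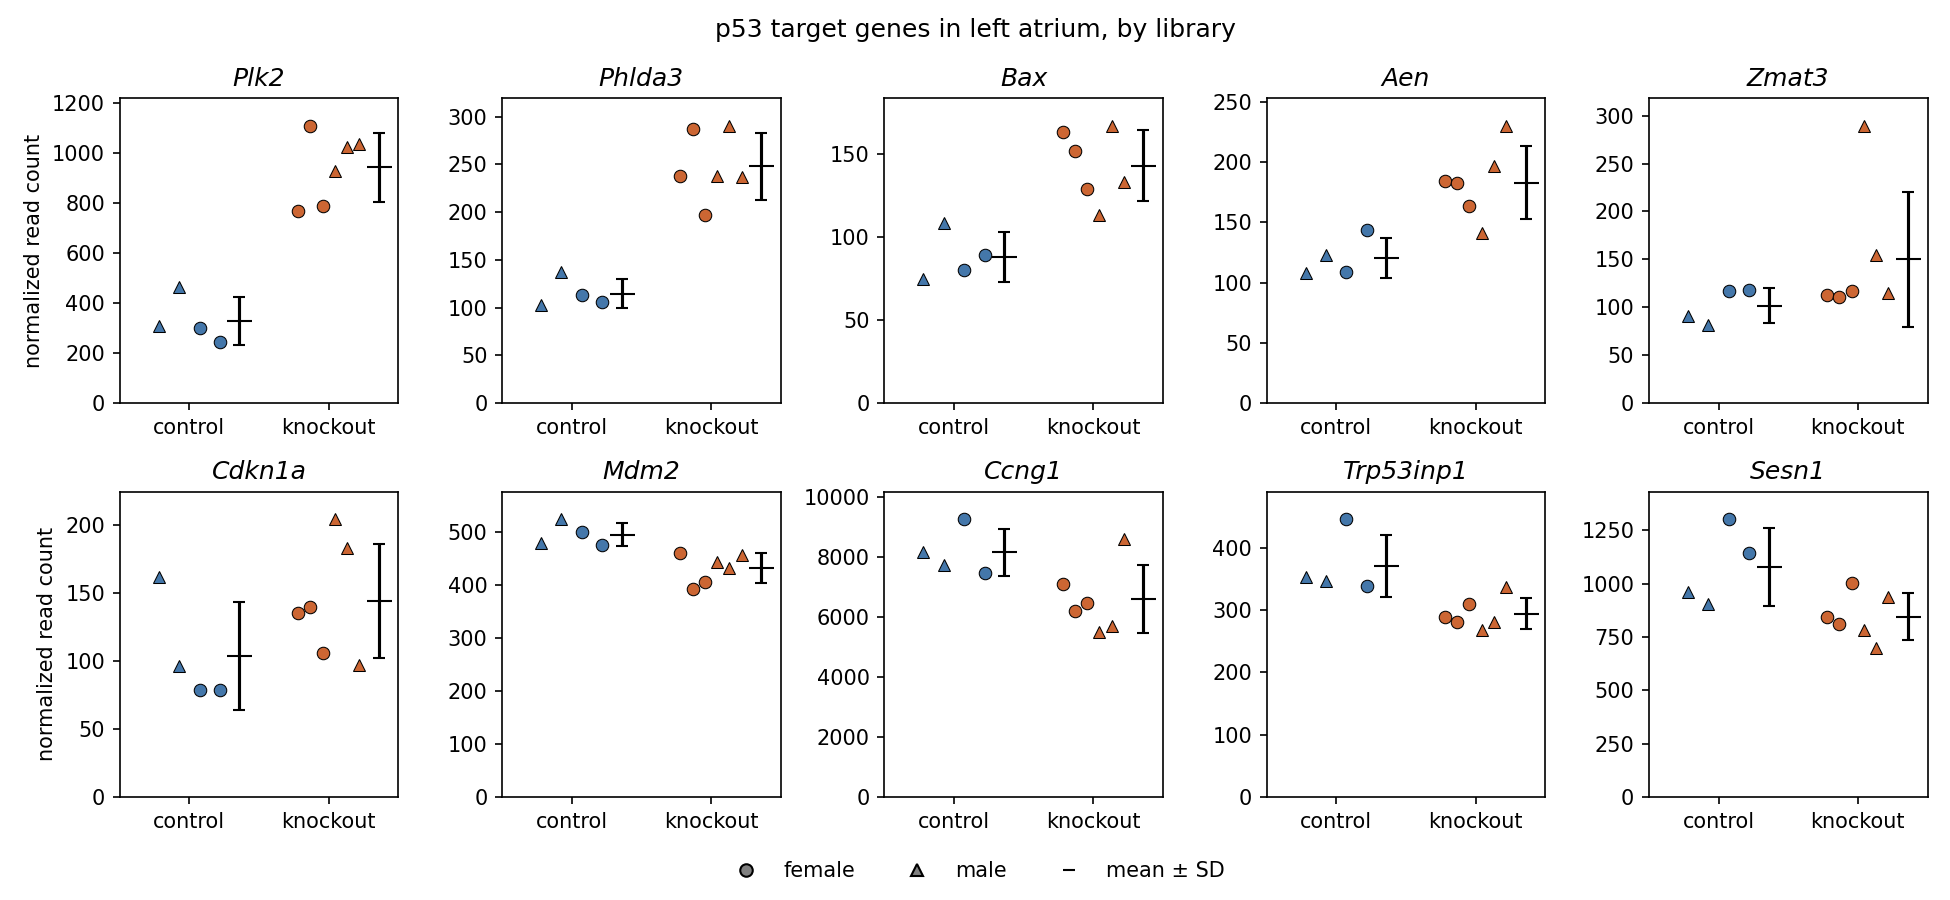
Normalized counts of the 10 p53 target genes in each library, 1 panel a gene, with a circle for each female and a triangle for each male library (blue control, orange knockout) and bars for the group mean ± SD. Plk2, Phlda3 and Bax separate the groups upward, Mdm2 and Trp53inp1 downward, and in the Zmat3 panel knockout M1 at 289 stands above all other libraries.

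Plk2 and Phlda3 showed the largest rises. Plk2 (chromosome 13, 110395046 to 110400844, GRCm38) encodes polo-like kinase 2, which acts on centriole duplication and is induced by p53 and by serum. Its level was 307, 466, 300 and 245 normalized counts in control M1, M2, F1 and F2, and 769, 976 and 1109 (lowest, median and highest) in the 6 knockouts. Every knockout library was well above the highest control, M2. The log2 fold change was 1.49 ± 0.17 (adjusted p = 1.45e-05), or 2.80-fold. Phlda3 (chromosome 1, 135766119 to 135769136) encodes a small pleckstrin-homology protein that competes with the survival kinase Akt for membrane lipids. Its controls were 103, 137, 113 and 106 normalized counts, in the same order, and its knockouts 197, 238 and 290. The groups did not overlap, and the control library nearest to the knockouts was again M2. Phlda3 rose by a log2 fold change of 1.08 ± 0.13 (adjusted p = 2.40e-05), or 2.12-fold. Both genes passed the test in all 27 alternative analyses.

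Bax and Aen, both tied to cell death, rose by less. Bax (chromosome 7, 45461697 to 45466898) encodes the BCL2-family protein that permeabilizes the outer mitochondrial membrane. Its controls were 74.5, 108, 79.8 and 88.9 normalized counts and its knockouts 113, 142 and 167. The groups were separate, but only narrowly, between knockout M1 at the bottom and control M2 at the top. Bax rose by 0.67 ± 0.14 on the log2 scale (adjusted p = 0.00196). An annotated gene on the same strand, Gm45808, shares 12.2% of the Bax exon length and has no row in the table. Aen (chromosome 7, 78895854 to 78911209) encodes an exonuclease that degrades nucleic acid during apoptosis. Its controls were 108, 123, 109 and 143 normalized counts and its knockouts 141, 183 and 230. The groups overlapped in 1 place, where knockout M1 lay just below control F2, and the other 5 knockouts were above all controls. Aen rose by 0.58 ± 0.14 on the log2 scale (adjusted p = 0.00471).

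Cdkn1a did not pass the test. This gene (chromosome 17, 29090976 to 29100727) encodes p21, the cyclin-dependent kinase inhibitor through which p53 arrests cells. Its controls were 162, 96.5, 78.6 and 78.4 normalized counts and its knockouts 97.1, 137 and 204. The groups overlapped: control M1 was higher than 4 of the 6 knockouts, while the other 3 controls were all below the lowest knockout, M3. The log2 fold change was 0.46 ± 0.24 (adjusted p = 0.140). Without control M1 it was 0.76 (adjusted p = 0.0199), so this single library set on which side of the threshold Cdkn1a fell. On the opposite strand, AC167363.2 covers 7.68% of the Cdkn1a exon length, and whether counting used strand is not given in the sources used here.

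Of the feedback genes Mdm2 and Ccng1, Mdm2 was called lower and Ccng1 lay just outside the threshold. Mdm2 (chromosome 10, 117688875 to 117710758) had 479, 523, 500 and 476 normalized counts in the controls and 393, 438 and 461 in the knockouts. The groups did not overlap, but the gap between control F2 and knockout F1 was small. Its log2 fold change was -0.22 ± 0.08 (adjusted p = 0.0430), or 1.16-fold lower. The call did not hold in 18 of 27 alternatives, among them no filter on low counts (adjusted p = 0.127), nor in the authors' deposited table (-0.20, adjusted p = 0.0561). Ccng1 (chromosome 11, 40748552 to 40755311) encodes cyclin G1, which brings the phosphatase PP2A to Mdm2. Its controls were 8157, 7740, 9240 and 7445 normalized counts and its knockouts 5484, 6310 and 8575. Knockout M3 lay inside the control range and the other 5 knockouts below it. The log2 fold change was -0.33 ± 0.13 (adjusted p = 0.0557). Without knockout M3 Ccng1 passed (adjusted p = 0.00745), and it passed in the authors' deposited table (-0.30, adjusted p = 0.0475).

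Trp53inp1 and Sesn1 fell. Trp53inp1 (chromosome 4, 11156431 to 11174379) encodes a stress protein that promotes p53 activity and autophagy. Its controls were 352, 347, 445 and 339 normalized counts and its knockouts 268, 285 and 337. All 6 knockouts were below all controls, though the highest knockout, M3, was close to the lowest control, F2, and control F1 stood apart at the top. On the log2 scale Trp53inp1 changed by -0.36 ± 0.10 (adjusted p = 0.0135). With GC and length offsets this was -0.15 and did not pass (adjusted p = 0.155). Sesn1 (chromosome 10, 41809935 to 41908424) encodes a sestrin, a stress-induced inhibitor of the growth kinase complex mTORC1. Its controls were 961, 902, 1300 and 1144 normalized counts and its knockouts 698, 825 and 1001. Knockouts F3 and M3 lay within the control range, and the other 4 knockouts were below every control. Sesn1 fell by 0.37 ± 0.13 on the log2 scale (adjusted p = 0.0270). Without control F1 no member fell (Trp53inp1 adjusted p = 0.0736, Sesn1 adjusted p = 0.134, Mdm2 adjusted p = 0.117), and without control F2, knockout F2 or knockout M2, 1 of the 10 did. Over all genes, 2301 fell without control F1, 2432 without control F2, 2541 without knockout F2 and 2577 without knockout M2, beside 2881 with all libraries.

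Zmat3 did not pass either. It (chromosome 3, 32334792 to 32366014) encodes a zinc finger protein that binds RNA and acts in p53-dependent growth control. Its controls were 91.1, 81.3, 117 and 118 normalized counts and its knockouts 111, 116 and 289. Only the male knockouts M1 and M2 were above all controls, and M1 was far above every other library. Its log2 fold change was 0.53 ± 0.26 (adjusted p = 0.121), and 0.26 without knockout M1 (adjusted p = 0.164).

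**Figure D2:**
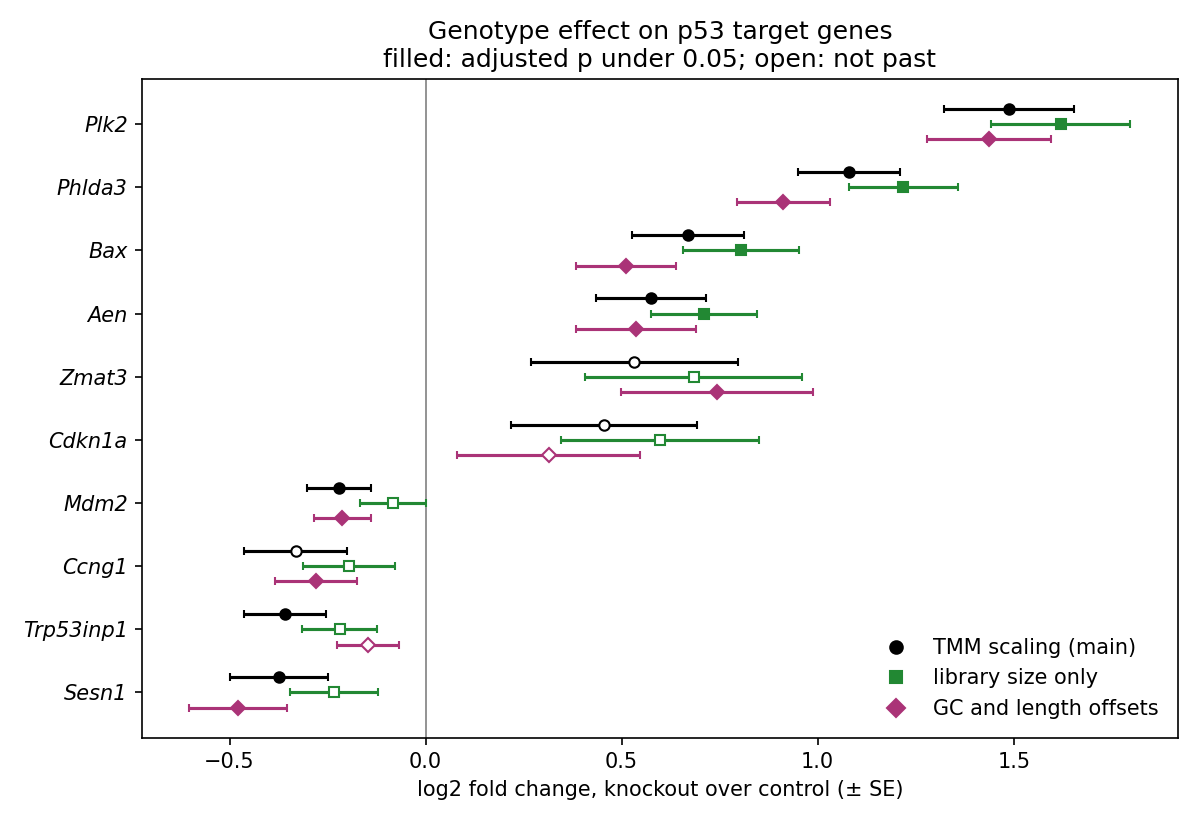
Log2 fold change, knockout over control, of each p53 target gene with its standard error, under TMM scaling (black), library size only (green) and GC and length offsets (purple), filled where the adjusted p is under 0.05. Under TMM scaling Plk2 at 1.49 and Phlda3 at 1.08 lie farthest to the right, the 4 negative values lie between -0.22 and -0.37, and with library size only no negative value is filled.

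Per kilobase of exon, the 10 genes spanned a wide range of levels in the controls. Ccng1 was the most abundant, at 2319 ± 224 normalized counts per kb (SD, n = 4), followed by Sesn1 at 270 ± 45.5 and Mdm2 at 97.3 ± 4.31. Phlda3 (73.6 ± 9.99), Plk2 (73.3 ± 21.2), Trp53inp1 (57.3 ± 7.70) and Bax (55.8 ± 9.45) came next, and neighbours among these 4 did not differ beyond their spread. Cdkn1a (29.2 ± 11.2) and Aen (20.8 ± 2.87) overlapped as well, and Zmat3 was lowest at 8.91 ± 1.62. In the knockouts, Ccng1 at 1873 ± 323 per kb and Sesn1 at 212 ± 27.3 still led. Plk2 moved to the third place at 210 ± 31.0, next to Sesn1, and Mdm2 to the sixth at 84.9 ± 5.44.

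Both labelled sexes were present in each group, so the genotype effect was also taken within sex, from a joint fit of sex and group to all 10 libraries. In female libraries 3 members rose (Plk2, Phlda3 and Bax) and 2 fell (Trp53inp1 and Sesn1), where 13.5% of all tested genes rose and 14.7% fell. In male libraries 4 rose (Plk2, Phlda3, Aen and Zmat3) and 0 fell, beside 12.8% and 13.2% of all tested genes. Fits to the libraries of 1 sex alone, which estimate the spread from fewer libraries, gave other counts. In females alone 5 members rose, Cdkn1a (0.67, adjusted p = 0.00933) and Aen (0.46, adjusted p = 0.0329) in addition, and 2 fell. Over all genes, 2336 rose and 2621 fell in females alone. In males alone 2 members rose, without Aen (adjusted p = 0.0713) and Zmat3 (adjusted p = 0.0715), and 0 fell. Far fewer of all genes were called there, with 1074 higher and 987 lower. Plk2 had a log2 fold change of 1.68 ± 0.21 in females and 1.34 ± 0.20 in males, and Phlda3 1.11 ± 0.19 and 1.05 ± 0.19. The difference between the sexes was then tested itself. For 0 of 10 members did it pass the edgeR interaction test, which 0.205% of all tested genes did. By DESeq2 the count was also 0. No share of all tested genes was taken for that count or at an unadjusted p. At an unadjusted p of 0.05 the count was 1, given as a description only. That 1 member was Zmat3, at -0.08 ± 0.30 in females and 1.09 ± 0.30 in males, a male minus female difference of 1.17 ± 0.42 (unadjusted p = 0.0159, adjusted p = 0.534). Its 3 female knockouts were at 113, 111 and 117 normalized counts, beside 117 and 118 in the female controls. The male knockouts were at 289, 155 and 115, beside 91.1 and 81.3 in the male controls. Without knockout M1 the difference was 0.71 ± 0.24 (adjusted p = 0.372).

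**Figure D3:**
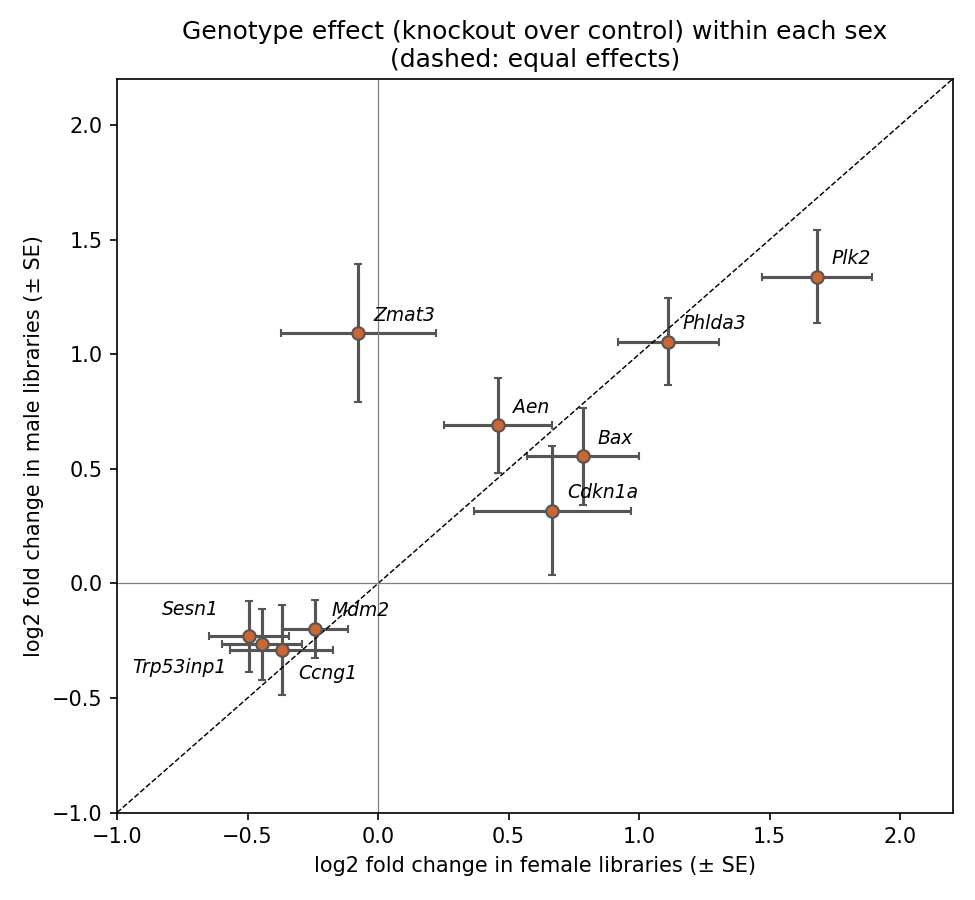
Log2 fold change of each p53 target gene in female libraries (x axis) against male libraries (y axis), with standard errors and the line of equal effect. Plk2 and Phlda3 lie high in both sexes, and Zmat3 lies farthest from the line, at -0.08 in females and 1.09 in males.

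Trp53, the gene for p53, was at 41.6 ± 6.41 normalized counts in controls and 57.6 ± 10.8 in knockouts, a log2 fold change of 0.45 ± 0.17. Its adjusted p of 0.04998 lay at the threshold, and DESeq2 gave 0.0536. Among 20 tested genes for p53, its partners and its regulators, 2 rose (10%) and 6 fell (30%), beside 20.8% and 21.8% of all tested genes. Their median log2 fold change was -0.19. Mdm4, the partner of Mdm2 that blocks p53 activity, fell from 345 ± 36.0 to 233 ± 22.4 (-0.59 ± 0.10, adjusted p = 0.000485). With offsets for GC content and exon length Mdm4 no longer passed (-0.17, adjusted p = 0.130). Of the other genes, Trp53bp2, a p53-binding protein that favours apoptosis, fell by 0.60 on the log2 scale, and Ppp1r13l, its inhibitory relative, fell by 1.15. Ppp1r13l did not pass without control F2 (adjusted p = 0.0545). The deacetylase gene Sirt1 fell by 0.42, a call lost with library size alone (-0.28, adjusted p = 0.0511) and without control F1 (adjusted p = 0.0544). Rps27l, a ribosomal protein that binds Mdm2, rose by 0.43. With library size alone the list counted 3 higher and 3 lower, beside 3942 and 2020 of the 13191 tested genes. With the offsets it counted 1 and 3 of 18, beside 2592 and 2547 of 11948 genes.

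A wider list of 35 tested, established p53 targets showed 8 higher, 9 lower and 18 not past the threshold, with a median log2 fold change of 0.04. These shares (22.9% and 25.7%) lie near those of all tested genes. Thbs1, which encodes the matrix protein thrombospondin 1 and is also a known target of TGF-beta, rose by 3.59 on the log2 scale. Gtse1 and Ckap2, both of which encode proteins of the mitotic spindle, rose by 2.99 and 3.49. Both were low in the controls, at 4.85 ± 1.80 and 10.5 ± 8.90 normalized counts, beside 40.7 ± 8.22 and 129 ± 49.6 in the knockouts. Rrm2b, the p53-induced subunit of ribonucleotide reductase, fell from 348 ± 43.1 to 211 ± 18.6 (-0.75, adjusted p = 8.47e-05), and by less with GC and length offsets (-0.44, adjusted p = 0.00155). Picked out after their values were seen, 5 further genes bear on known branches of the response. Bbc3, the death gene Puma, did not pass (-0.30, adjusted p = 0.356). Fas, the death receptor, fell by 0.42 (adjusted p = 0.0263). Xpc, of nucleotide excision repair, fell by 0.39. Of the lesion-bypass polymerases, Polk fell by 0.53 and Polh rose by 0.42 (adjusted p = 0.0402). With library size alone Fas and Xpc did not pass (adjusted p = 0.124 and adjusted p = 0.130), and without control F1 none of Fas, Xpc, Polk and Polh did (adjusted p = 0.0521, adjusted p = 0.0779, adjusted p = 0.0510 and adjusted p = 0.0934). Pmaip1, Rprm and Gdf15 were too low to be tested. With library size alone the list counted 11 higher and 5 lower, beside 3942 and 2020 of the 13191 tested genes.

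**Figure D4:**
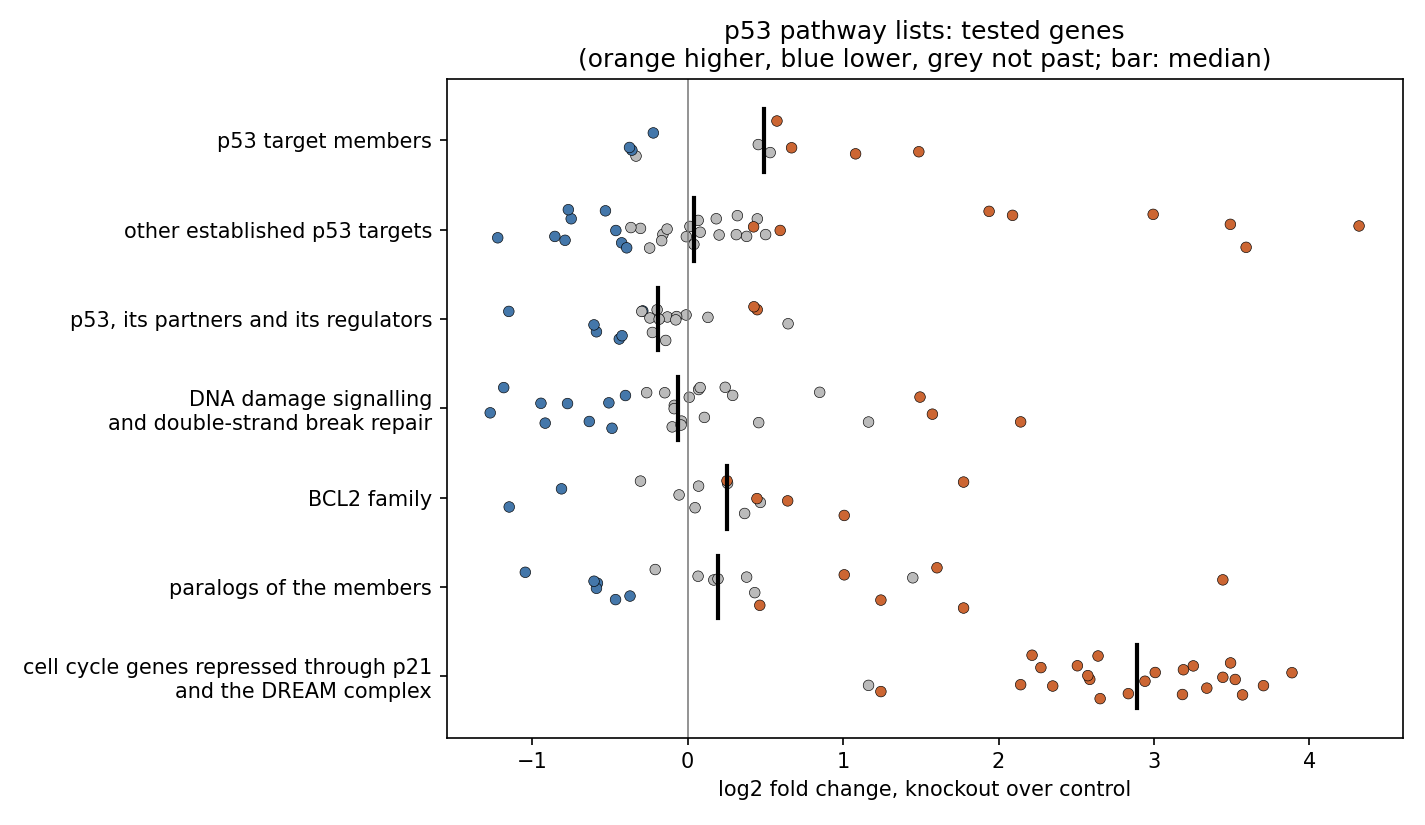
Log2 fold change of every tested gene in each p53-related list, 1 point a gene (orange higher, blue lower, grey not past the threshold), with a bar at the median; the top row holds the 10 targets described here. The cell cycle list lies far to the right with a median of 2.89, and the medians of the other lists lie between -0.19 and 0.49.

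Genes of DNA damage signalling and double-strand break repair counted 3 higher, 9 lower and 16 not past the threshold of 28 tested. These shares were 10.7% and 32.1%, beside 20.8% and 21.8% of all tested genes, and the median log2 fold change was -0.06. Atm, the kinase that senses double-strand breaks, fell from 409 ± 31.0 to 173 ± 17.2 normalized counts (-1.27 ± 0.10, adjusted p = 7.32e-07). Prkdc, the DNA-dependent kinase of end joining, fell by 1.18 and Atr, the kinase of replication stress, by 0.94 on the log2 scale. Xrcc5, which binds broken ends as Ku80, fell by 0.77 and Rad50 by 0.92. The 3 that rose were Brca1 (1.57), Chek1 (2.14) and H2afx (adjusted p = 0.000882), named as the full set after their values were seen, and each is also known to be induced in cycling cells. All 3 were low in the controls, at 17.4 ± 5.37, 5.79 ± 2.02 and 25.1 ± 7.90 normalized counts in this order. With library size alone the list counted 7 higher and 6 lower, beside 3942 and 2020 of the 13191 tested genes. The falls of Atm, Prkdc, Atr, Xrcc5 and Rad50 still passed with that scaling. They also passed with GC and length offsets, where Atr fell by 0.33 (adjusted p = 0.0142), Prkdc by 0.81, Atm by 0.97, Xrcc5 by 0.85 and Rad50 by 0.87.

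Within the BCL2 family, 5 of 14 tested genes rose (35.7%) and 2 fell (14.3%), beside 20.8% and 21.8% of all tested genes. The median log2 fold change of the family was 0.26. The pore-forming relatives of Bax rose with it: Bok from 54.1 ± 13.1 to 191 ± 36.0 normalized counts and Bak1 by 1.01 on the log2 scale (adjusted p = 0.000143). The BH3-only genes Bcl2l11 and Bmf fell by 1.15 and 0.81, while Bad rose by 0.45 (adjusted p = 0.0105). With GC and length offsets Bad did not pass (0.30, adjusted p = 0.0541). Bcl2, the antagonist of Bax, was at 153 ± 16.8 and 186 ± 31.7 (0.26 ± 0.13, adjusted p = 0.134). It passed with library size alone (0.40, adjusted p = 0.0345) and with the offsets (0.44, adjusted p = 0.0140). Bcl2l1 rose by 0.64 (adjusted p = 0.0153). Mcl1, named after its value was seen to complete the 5 that rose, went from 1502 to 1822 normalized counts (0.25, adjusted p = 0.0353). The log2 ratio of Bax to Bcl2 reads within a library was -1.08, -0.53, -1.07 and -0.53 in control M1, M2, F1 and F2 and ran from -0.79 to 0.11 in the knockouts. The groups overlapped, the difference was 0.43, and an exact two-sided permutation test gave p = 0.0714. Without knockout M1 the difference was 0.51 (exact permutation p = 0.00794). Leaving out any other single library gave an exact permutation p of 0.0595 to 0.143. Against Bcl2l1 the difference was 0.06 (exact permutation p = 0.833).

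Among the paralogs of the 10 genes, Bok, Bak1 and Mdm4 included, 6 of 19 were higher and 6 lower (31.6% each), beside 20.8% and 21.8% of all tested genes. With library size alone 6 were higher and 3 lower, beside 3942 and 2020 of the 13191 tested genes. With GC and length offsets 6 and 4 were, beside 2592 and 2547 of 11948 genes. All tested polo-like kinases beside Plk2 rose: Plk1 by 3.44, Plk3 by 1.60 and Plk4 by 1.24 on the log2 scale. Plk1 and Plk3 were low in the controls, at 3.79 ± 4.04 and 17.2 ± 6.58 normalized counts. In the knockouts they were at 41.6 ± 14.9 and 54.1 ± 12.4. Among the other CDK inhibitors of the p21 family, Cdkn1c (p57) fell from 155 to 105 normalized counts (-0.58, adjusted p = 0.0274) and Cdkn1b (p27) was at 363 and 319 (-0.21, adjusted p = 0.114). Cdkn1c did not pass with library size alone (adjusted p = 0.0652), without control F1 (adjusted p = 0.120) or without control F2 (adjusted p = 0.0672). Ccng2, the relative of Ccng1, fell by 0.60. Ccni fell by 0.37, a call lost with library size alone (-0.23, adjusted p = 0.131) and without control F2 (adjusted p = 0.0512). Sesn3 was at -0.46 (adjusted p = 0.0294), but at -0.08 with GC and length offsets (adjusted p = 0.712) and -0.32 with library size alone (adjusted p = 0.140). Sesn2, with a log2 fold change of 0.38, did not pass (adjusted p = 0.280). Phlda1, with a log2 fold change of 1.45 and of 0.34 without knockout M1, did not pass (adjusted p = 0.115), nor did Trp53inp2 (0.07), Zmat2 (0.17) or Zmat5 (0.20). Zmat1 fell by 1.04, and Isg20l2, the nuclease relative of Aen, rose by 0.46.

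Cell cycle genes that p53 is known to repress through p21 and the DREAM complex were higher. Of 24 tested, 23 rose (95.8%) and 0 fell, beside 20.8% and 21.8% of all tested genes. The median log2 fold change of the list was 2.89. Cdk1, the mitotic kinase, went from 15.1 to 237 normalized counts and rose by 3.89 on the log2 scale.

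Markers of other cell types moved with the groups, and their part in the p53 target values was not tested. Of the tested markers, 8 of 10 fibroblast, 11 of 11 macrophage and 7 of 10 smooth muscle and pericyte genes rose. For these and the marker counts below, 20.8% of all tested genes rose and 21.8% fell. The summed level ran from 32815 to 37302 normalized counts in controls and from 72370 to 110677 in knockouts for fibroblast markers. For macrophage markers these ranges were 4119 to 5687 and 9030 to 13438, and for smooth muscle and pericyte markers 9576 to 10416 and 15613 to 19561. Of the defining markers of that last list, Myh11 did not pass, at 71.6 and 54.4 (-0.42, adjusted p = 0.255). Acta2 rose by 1.41 on the log2 scale, from 281 to 758. Both are small beside the sum, which rests mostly on the other markers of the list. The cardiomyocyte markers, of which 5 of 10 fell and 3 rose, summed to 788280 to 1006400 in controls and 409266 to 565893 in knockouts. The defining markers Tnnt2 (0.63, adjusted p = 0.0101) and Actc1 (0.56, adjusted p = 0.00236) were among the 3 that rose. Myl7 and Myl4 were among the 5 that fell, so the lower sum does not hold for each marker. Endothelial markers (4 higher and 2 lower of 10) summed to 10594 to 11482 and 12433 to 14732. Epicardial markers (1 of 8 higher) summed to 2911 to 3736 and 2909 to 4471. Lymphocyte markers summed to 17.8 to 33.1 and 15.6 to 30.4, and 8 of 9 were too low to be tested. In none of these lists was a marker at 0 in all libraries.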

How the data were processed

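The labels' protocols give single-end sequencing with a read length of 51 bp for the 10 left atria, and name both an mRNA kit and ribosomal depletion. The submitters' processing notes name FastQC, TopHat2 2.0.11, featureCounts, DESeq2 and build mm10. Not given in the sources used here are the annotation, the strand setting and the handling of reads that match several genes. Raw counts, 1 row per gene symbol, were deposited by the authors. They also deposited a normalized signal, the count divided by a size factor per library, and their own log2 fold change with its p-value, a test score and a linear fold ratio.

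Raw counts were tested with edgeR 4.0.16 in R 4.3.3: filterByExpr by group, TMM scaling, quasi-likelihood F-test without covariates, and Benjamini-Hochberg adjustment at 0.05 over 13191 genes. Sex effects came from a fit of sex and group. The standard error is the log2 fold change divided by the square root of F. Ratios used raw counts plus 0.5, and log2 levels a pseudocount of 1. The scripts were tested on simulated data. Positions and exon lengths are from GENCODE M21 (GRCm38), and promoters from RefSeq.

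The p53 targets and all gene lists were chosen with earlier results of these data known. The text names Tbx5, Trp53, Bcl2, the 10 targets, their paralogs, the defining markers and the 5 genes of smallest p in each list; genes outside this rule are marked as such or given as checks. Some genes named by the rule are left out of the text. Alternatives were RLE, upper-quartile and library-size scaling, DESeq2 1.42.0, limma-voom (limma 3.58.1), no filter or at least 50 counts in 4 libraries, sex or a replicate block as covariate, an adjusted p of 0.1, a test against a fold of 1.2, a robust fit, offsets for GC content and exon length (11948 genes), each sex alone and each library left out. Omitting control F1 with knockout M3, or control M1 with knockout M1, was chosen after seeing the data. The labels name separate animals but no batch, date or litter. No replicates agreed within sampling noise (lowest chi-square per degree of freedom 4.22). All per-sample columns matched a library.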

Additional observations from a re-analysis of the deposited data

Results flagged for a closer look

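Single libraries stood apart from their group in 2 of 26 groups of samples tested with Dixon's criterion, where chance alone marks about 1 in 20. For Trp53inp1, control F1 was at 445 normalized counts, above the other 3 controls at 339 to 352, and its gap was 0.873 of the range. For Zmat3, knockout M1 was at 289, above the other 5 knockouts at 111 to 155, and its gap was 0.753 of the range.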

How the results depend on the processing

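Each of the 10 genes was recomputed under 27 alternatives. Plk2 and Phlda3 stayed past the threshold in all 27, and Bax and Aen in all but a fit to the male libraries alone (adjusted p = 0.145 and adjusted p = 0.0713). The number of members that fell was 0 with library size only, 0 in a test against a fold of 1.2 and 0 in male libraries alone, where 2 rose. Leaving out single libraries gave 0 to 4 falls and 4 to 5 rises. The same fits gave 2301 to 3043 falls and 2408 to 3042 rises over all genes. Over all genes, 3942 rose and 2020 fell with library size only, 1717 and 1875 against a fold of 1.2, and 1074 and 987 in male libraries alone. Cdkn1a passed in 4 alternatives, Ccng1 in 8 and Zmat3 in 1 (the offsets, 0.74, adjusted p = 0.0254), and Zmat3 was -0.073 in female libraries alone. The sign of small changes turned for Pecam1 (-0.00308 with the replicate block, -0.055 in males), Trp53inp2 (-0.017 with the offsets, -0.11 in females, -0.17 to 0.15 without single libraries, -0.11 without control M1 and knockout M1), Phlda1 (-0.24 in females) and Upk3b (0.024 in males). The Bax to Bcl2 difference ran from 0.33 to 0.52 without single libraries. For these turns the cause was not tested.

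Shared labels did not pair the samples: deviations of same-labelled libraries correlated at -0.04 (M1), 0.17 (M2), -0.13 (F1) and -0.05 (F2), and 1 of 4 correlated best with its own label. With the replicate block 5 members rose and 3 fell (Cdkn1a 0.68, adjusted p = 0.00412; Ccng1 -0.45, adjusted p = 0.00447; Mdm2 adjusted p = 0.0697), and over all genes 2599 rose and 2812 fell.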
